A study of Mus musculus with 71 samples.

Results

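The 9 B cell receptor and BAFF receptor genes described here are Cd79a, Cd79b, Tnfrsf13c, Ms4a1, Cr2, Cd22, Blk, Fcmr and Pax5. They were chosen by name, with earlier results of these data known, and found by gene symbol. All 9 were among the 10508 genes of the normalised table and the 55416 genes of the count table. RNA of whole blood was sequenced in a mouse study of mAbs against galectin-3 (Gal-3) in systemic sclerosis (SSc), a disease modelled by injecting hypochlorous acid (HOCl) into the skin. Control, HOCl, D11 and E07 mice were female Balb/c AnNRj, aged 6 weeks at inclusion, and their blood was taken at day 42. The study asked whether the mAbs alter this disease, and the comparisons below ask which members differed between its groups.

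The control group (CTRL) comprised 11 mice injected with PBS. The HOCl group comprised 12 mice that received HOCl and no mAb. Mice receiving HOCl together with D11 mAb (n = 12) or E07 mAb (n = 12) were given 20 mg/kg of antibody subcutaneously. A further 12 mice were labelled HOCl with D06 and 12 were labelled HOCl with BPR21. What these agents are, their dose, and the strain, sex, age and day of sampling of these mice are not given in the sources used here. Groups of the study were kept in separate cages, which is not stated for D06 and BPR21 mice, so cage and treatment cannot be told apart.

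Mature B cells detect antigen through the B cell receptor, a membrane immunoglobulin bound to a heterodimer of Igα and Igβ that carries the signal into the cell. Co-receptors and Src-family kinases set the strength of this signal, and the cytokine BAFF keeps the cells alive through its own receptor. In blood, most cells that carry these proteins are circulating B cells.

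The total count of a mouse lay between 11932855 and 15948972 (median 13719277). The group medians lay between 13558719 in D11 mice and 14058520.5 in HOCl mice. Members were counted in every mouse, and the lowest count of any of them was 92, for Pax5. Divided by total count and by exon length (CPM per kb), Cd79a had the highest median level over the 71 mice (226), followed by Cd79b (212). Fcmr (65.7 CPM per kb) and Ms4a1 (36.4) came next. The median levels of Cd22 (21.8 CPM per kb), Tnfrsf13c (19.8) and Blk (19.0) lay close together. Pax5 (4.90 CPM per kb) and Cr2 (3.98) had the lowest levels.

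On GRCm39, Cd79a lies on chr7:24596740-24601622 on the plus strand and Cd22 on chr7:30564827-30579767 on the minus strand. Cd79b is annotated on chr11:106202167-106205588, Tnfrsf13c on chr15:82105944-82108580, Ms4a1 on chr19:11227039-11243605 and Blk on chr14:63610285-63654587, all on the minus strand. Fcmr lies on the plus strand of chr1:130793406-130808528, and Cr2 on the minus strand of the same chromosome, at chr1:194819119-194859091. Pax5 occupies chr4:44524757-44710487 on the minus strand. Annotated noncoding genes overlap some members, and those present in the count table held at most 23 counts in any mouse. The libraries were stranded.

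Members moved together across mice, as described below, and whether their promoters bear on this was not tested. Promoters are shown where a searched motif lay outside the annotated exons. RefSeq promoter sequences (table build GRCm38.p6) were held for 6 of 9 members, and 3 (Cd79b, Ms4a1 and Blk) had no entry. The 250 bases before the start were matched to GRCm39, and only bases outside annotated exons of the member are printed, 5′ to 3′ on the strand of the gene. The first is chr15:82108582-82108831, on the minus strand before the annotated Tnfrsf13c gene, a window that overlaps an exon of the noncoding gene Gm62282 on the opposite strand. The next, chr7:30578454-30578601 on the minus strand, lies inside the annotated Cd22 gene. The last is chr1:194859092-194859277, on the minus strand before the annotated Cr2 gene. Capitals mark the motif match.

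Tnfrsf13c: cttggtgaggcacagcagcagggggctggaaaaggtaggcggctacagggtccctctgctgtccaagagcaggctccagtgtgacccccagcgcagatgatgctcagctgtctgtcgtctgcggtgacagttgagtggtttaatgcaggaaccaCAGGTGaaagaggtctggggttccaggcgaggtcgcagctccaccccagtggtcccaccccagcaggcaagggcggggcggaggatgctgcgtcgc
Cd22: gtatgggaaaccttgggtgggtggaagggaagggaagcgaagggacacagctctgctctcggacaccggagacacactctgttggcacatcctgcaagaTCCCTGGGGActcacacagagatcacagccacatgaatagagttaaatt
Cr2: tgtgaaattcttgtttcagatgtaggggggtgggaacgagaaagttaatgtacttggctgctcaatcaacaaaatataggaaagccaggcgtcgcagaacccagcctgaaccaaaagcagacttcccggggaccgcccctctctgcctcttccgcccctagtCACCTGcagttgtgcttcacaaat

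The capitals are an E-box for Tnfrsf13c, bases -96 to -91 from the start, an EBF motif for Cd22, bases -49 to -40, and an E-box read on the other strand for Cr2, bases -88 to -83. The search covered 6 motifs on both strands. The E-box CAGGTG occurred in 17.2% of the 32851 promoters of the table. The EBF motif TCCCNNGGGA was found in 0.779% of them. The octamer ATGCAAAT stood in 1.6%, the PU.1 motif GAGGAAGT in 2.44%, the ETS motif CCGGAAGT in 2.88% and the TATA motif TATAAA in 12.4%. Cd79a and a further stretch of Cd22 held an E-box within annotated exons, and 0 matches overlapped another. In Pax5 and Fcmr these letters were not found in the window. A match describes the letters only.

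Values below are the deposited variance-stabilised values (vst), on a log2-like scale, for 70 of the 71 mice. Only counts were used for HOCl mouse 8, which leaves 11 HOCl mice in the tests on this scale. A member is said to have passed when limma gave an FDR of at most 0.05 over all 10508 genes and a fold change of at least 1.3. Members and genes counted as higher or lower in a comparison are those that passed with that sign. Fold changes on the vst scale understate the change of genes with few counts.

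E07 mice had the highest mean of every member among the 6 groups, and the ranges of the groups overlapped for all 9 members in every comparison. The share of all genes for which either holds is not given here. Together, the members took 0.131% to 0.274% of the counts of E07 mice (median 0.215%), and 0.0358% to 0.155% (median 0.114%) of those of HOCl mice. The share was 0.0792% to 0.255% in control mice (median 0.154%). In D11 mice it was 0.0627% to 0.212% (median 0.116%), in D06 mice 0.0271% to 0.140% (median 0.104%) and in BPR21 mice 0.0241% to 0.217% (median 0.0911%). On the scale of total counts all genes shifted as well, with a median log2 fold change (CPM plus 1) of 0.49 in E07 compared with HOCl mice and -0.47 in HOCl compared with control mice. In whole blood, fewer B cells and less RNA per B cell cannot be told apart. The plot of members by mouse gives their vst values, which are scaled by size factors and not by total count.

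**Figure D1:**
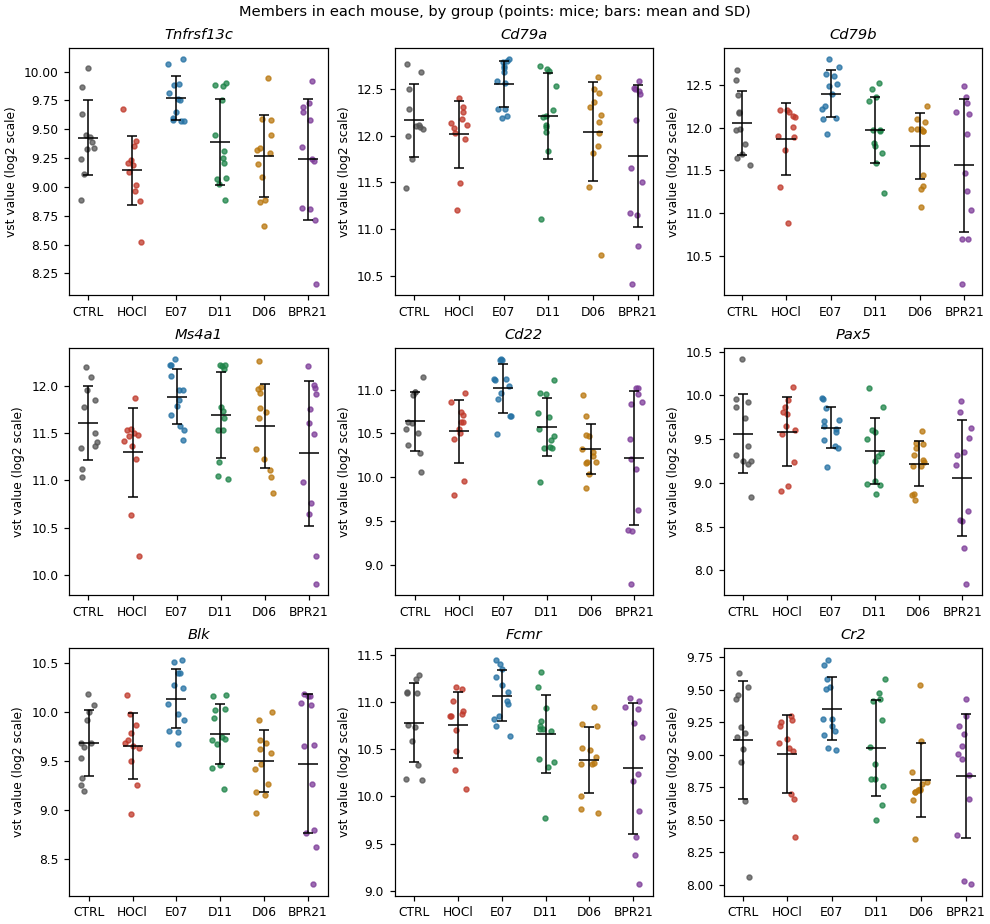
vst value (log2-like scale) of each of the 9 members in each mouse (points), by group, with the mean and SD as bars. The E07 group has the highest mean in all 9 panels, and the BPR21 group has the widest spread.

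Against the HOCl group, 6 of 9 members were higher in E07 mice, namely Tnfrsf13c, Cd79a, Cd79b, Ms4a1, Cd22 and Blk. Of all 10508 genes, 7.89% passed in this comparison (829 genes), and 0.876% passed with higher values in E07 mice (92 genes). The median log2 fold change of the members was 0.49, and that of all genes 0.02. edgeR and DESeq2 on counts passed the same 6 members (11.2% and 12% of all genes). The count was 2 of 9 with all 6 groups in one limma fit (6.48% of all genes). It was 3 of 9 with each mouse centred on a list of T cell genes (9.03%, 25 genes higher and 924 lower). Of 23 erythroid genes, 22 were lower in E07 than in HOCl mice, and with their mean z-score as a covariate 0 of 9 members and 0% of all genes passed in limma (1206 genes at an unadjusted p under 0.05). Between the HOCl group and control mice, where 4.96% of all genes passed (521 genes), 0 of 9 members did so in limma. The erythroid covariate left 0 members and 1 of all 10508 genes past the thresholds there. In the reported fit Tnfrsf13c had an unadjusted p under 0.05 there, the only member to do so (1 of 9, and 1885 of all 10508 genes). By edgeR and by DESeq2 0 members passed, beside 538 and 668 of 10503 genes. The median log2 fold change of the members was -0.11 in HOCl compared with control mice, and that of all genes was -0.02. The members' log2 fold changes there ran from -0.31 for Ms4a1 to 0.02 for Pax5. Their median there was 0.0003 with T cell list centring, 0.05 with the erythroid covariate and -0.60 with CPM plus 1 (all genes -0.47). Both comparisons share the HOCl mice.

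Cd79a and Cd79b encode Igα and Igβ, the signalling subunits of the receptor. Cd79a measured 11.44 to 12.76 in control mice (median 12.10), 11.20 to 12.40 in HOCl mice (median 12.11) and 12.19 to 12.82 in E07 mice (median 12.63). All 12 E07 mice lay above the HOCl median and 8 of them above the highest HOCl mouse, while the groups overlapped. Cd79a was 1.46-fold higher in E07 than in HOCl mice (log2 fold change 0.54, 95% CI 0.30 to 0.79, FDR 0.00257), and its log2 fold change between HOCl and control mice was -0.15 (FDR 0.655). Cd79b measured 11.57 to 12.68 in control mice (median 11.98), 10.88 to 12.21 in HOCl mice (median 12.00) and 11.93 to 12.81 in E07 mice (median 12.45). For Cd79b, 9 of 12 E07 mice lay above the highest HOCl mouse, and the lowest E07 mouse was below the HOCl median. E07 mice had 1.44-fold higher Cd79b (log2 fold change 0.53, 95% CI 0.25 to 0.81, FDR 0.00918), and HOCl mice differed from control mice by -0.19 (FDR 0.585).

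The other groups overlapped the HOCl group for both subunits. Cd79a measured 11.10 to 12.75 in D11 mice (median 12.20), 10.73 to 12.63 in D06 mice (median 12.19) and 10.42 to 12.58 in BPR21 mice (median 11.91). For Cd79b these values were 11.24 to 12.53 (median 11.97), 11.08 to 12.26 (median 11.97) and 10.17 to 12.49 (median 11.70). The means of Cd79a decreased in the order E07, D11, CTRL, D06, HOCl and BPR21, and those of Cd79b in the order E07, CTRL, D11, HOCl, D06 and BPR21. Neighbouring groups in these orders did not pass the test, with FDR values from 0.139 to 0.957 for Cd79a and from 0.491 to 0.862 for Cd79b. The unadjusted p was under 0.05 between E07 and D11 mice for Cd79a (p = 0.0192) and between E07 and control mice for Cd79b (p = 0.0117).

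Tnfrsf13c encodes the BAFF receptor, through which B cells receive their survival signal. It measured 8.88 to 10.03 in control mice (median 9.39), 8.52 to 9.68 in HOCl mice (median 9.19) and 9.57 to 10.11 in E07 mice (median 9.76). All 12 E07 mice lay above the HOCl median and 7 above the highest HOCl mouse, and 9 of 11 HOCl mice lay below the control median. Tnfrsf13c had the largest fold change of the members between E07 and HOCl mice, 1.55-fold (log2 fold change 0.63, 95% CI 0.42 to 0.83, FDR 0.000189). Its log2 fold change between HOCl and control mice was -0.28 (95% CI -0.54 to -0.02, p = 0.0332, FDR 0.223), which did not pass.

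In D11 mice Tnfrsf13c measured 8.88 to 9.90 (median 9.28), in D06 mice 8.66 to 9.94 (median 9.31) and in BPR21 mice 8.16 to 9.91 (median 9.29). These ranges overlap that of HOCl mice. Tnfrsf13c was the only member with its lowest mean in the HOCl group, and its order was E07, CTRL, D11, D06, BPR21 and HOCl, with FDR values from 0.354 to 0.978 between neighbours.

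Ms4a1, which encodes the surface protein CD20, measured 11.03 to 12.19 in control mice (median 11.50), 10.20 to 11.87 in HOCl mice (median 11.47) and 11.43 to 12.28 in E07 mice (median 11.90). Of the 12 E07 mice, 11 lay above the HOCl median and 6 above the highest HOCl mouse. Ms4a1 was 1.51-fold higher in E07 mice (log2 fold change 0.59, 95% CI 0.29 to 0.89, FDR 0.00744). Its log2 fold change between HOCl and control mice was -0.31 (FDR 0.351), the lowest of the members there. Ms4a1 measured 11.01 to 12.22 in D11 mice (median 11.69), 10.87 to 12.26 in D06 mice (median 11.69) and 9.90 to 12.20 in BPR21 mice (median 11.55). The order of means was E07, D11, CTRL, D06, HOCl and BPR21 (FDR between neighbours 0.484 to 0.997).

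Cr2 encodes the complement receptor CD21, a co-receptor that lowers the threshold of the B cell receptor. It measured 8.06 to 9.63 in control mice (median 9.16), 8.37 to 9.29 in HOCl mice (median 9.09) and 9.04 to 9.73 in E07 mice (median 9.27). Of the 12 E07 mice, 10 lay above the HOCl median and 5 above the highest HOCl mouse. The log2 fold change was 0.35 (95% CI 0.13 to 0.57, FDR 0.0294), under the 1.3-fold threshold, so Cr2 did not pass. Values were 8.50 to 9.58 in D11 mice (median 8.99), 8.35 to 9.53 in D06 mice (median 8.73) and 8.00 to 9.42 in BPR21 mice (median 8.99). In the D06 group, 10 of 12 mice lay below the HOCl median of Cr2, and this was the only member with its lowest mean in D06 mice (order E07, CTRL, D11, HOCl, BPR21 and D06, FDR between neighbours 0.684 to 0.973).

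Cd22 encodes a sialic acid-binding co-receptor that inhibits the B cell receptor, and the promoter stretch with the EBF letters above belongs to it. Cd22 measured 10.06 to 11.14 in control mice (median 10.62), 9.79 to 10.96 in HOCl mice (median 10.63) and 10.50 to 11.34 in E07 mice (median 11.07). Of the 12 E07 mice, 11 lay above the HOCl median and 7 above the highest HOCl mouse. Cd22 was 1.40-fold higher with E07 mAb (log2 fold change 0.49, 95% CI 0.23 to 0.74, FDR 0.00823). It measured 9.95 to 11.11 in D11 mice (median 10.51), 9.87 to 10.94 in D06 mice (median 10.27) and 8.78 to 11.02 in BPR21 mice (median 10.32). The order of means was E07, CTRL, D11, HOCl, D06 and BPR21 (FDR between neighbours 0.362 to 0.922).

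Blk encodes a Src-family kinase that phosphorylates the receptor subunits. It measured 9.20 to 10.18 in control mice (median 9.68), 8.96 to 10.18 in HOCl mice (median 9.68) and 9.67 to 10.53 in E07 mice (median 10.16). Of the 12 E07 mice, 11 lay above the HOCl median and 6 above the highest HOCl mouse. Blk was 1.40-fold higher with E07 mAb (log2 fold change 0.48, 95% CI 0.23 to 0.73, FDR 0.00901). It measured 9.21 to 10.17 in D11 mice (median 9.73), 8.97 to 10.00 in D06 mice (median 9.53) and 8.24 to 10.19 in BPR21 mice (median 9.66), in the order of means E07, D11, CTRL, HOCl, D06 and BPR21 (FDR between neighbours 0.0593 to 0.98).

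Fcmr encodes the Fc receptor for IgM. It measured 10.18 to 11.29 in control mice (median 10.75), 10.08 to 11.16 in HOCl mice (median 10.85) and 10.64 to 11.45 in E07 mice (median 11.06). Of the 12 E07 mice, 8 lay above the HOCl median, and the log2 fold change of 0.31 did not pass (95% CI 0.06 to 0.56, FDR 0.0853). Fcmr measured 9.77 to 11.32 in D11 mice (median 10.71), 9.83 to 10.95 in D06 mice (median 10.39) and 9.07 to 11.04 in BPR21 mice (median 10.43). In the D06 group, 11 of 12 mice lay below the HOCl median of Fcmr. The order of means was E07, CTRL, HOCl, D11, D06 and BPR21 (FDR between neighbours 0.639 to 0.96).

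Pax5, the transcription factor that maintains B cell identity, had the smallest log2 fold change of the members between E07 and HOCl mice. It measured 8.84 to 10.41 in control mice (median 9.43), 8.90 to 10.10 in HOCl mice (median 9.64) and 9.18 to 9.97 in E07 mice (median 9.63). The E07 mice lay evenly around the HOCl median, 6 above and 6 below. The log2 fold change was 0.04 (95% CI -0.21 to 0.30, FDR 0.853) and was -0.13 in edgeR on counts with HOCl mouse 8 included (FDR 0.678), where Pax5 in that mouse was 121 CPM and 13.2 to 67.7 CPM in the other HOCl mice. Without mouse 8, a setting added after seeing the data, edgeR gave a positive value for Pax5. Pax5 measured 8.87 to 10.08 in D11 mice (median 9.33), 8.81 to 9.60 in D06 mice (median 9.25) and 7.84 to 9.93 in BPR21 mice (median 9.26). All 12 D06 mice lay below the HOCl median of Pax5, and the order of means was E07, HOCl, CTRL, D11, D06 and BPR21 (FDR between neighbours 0.58 to 0.968). A test of whether Pax5 differed from the other members in its response was not run.

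**Figure D2:**
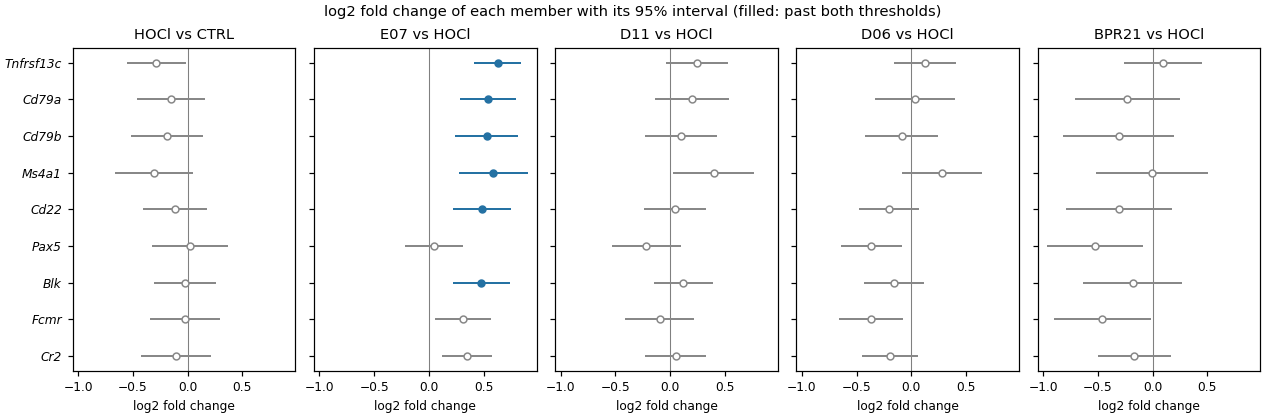
log2 fold change of each member with its 95% CI (limma on vst values), in HOCl compared with control mice and in each treated group compared with HOCl mice. For E07 mAb, 6 of 9 members passed and the values ran from 0.04 for Pax5 to 0.63 for Tnfrsf13c.

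D11 mAb was given at the same dose as E07 mAb, and 0 of 9 members passed in limma in D11 compared with HOCl mice (0.0571% of all genes). Ms4a1 had the only unadjusted p under 0.05 (1 of 9, and 1483 of all 10508 genes), with a log2 fold change of 0.40 (FDR 0.315). By edgeR and by DESeq2 0 members passed, beside 43 of 10503 and 154 of 8874 genes. These count fits include HOCl mouse 8. Without it, a setting added after seeing the data, edgeR passed 10 of 10503 genes. The members' log2 fold changes ran from -0.22 for Pax5 to 0.40 for Ms4a1, with a median of 0.10. The direct comparison of E07 with D11 mice had 3 of 9 members higher in E07 mice, with 4.57% of all genes past the thresholds and 0.295% past them with higher values. These members were Cd22 (log2 fold change 0.44, FDR 0.0268), Cd79b (0.42, FDR 0.0429) and Tnfrsf13c (0.38, FDR 0.043). With an unadjusted p under 0.05 the count was 8 of 9, all but Ms4a1 (0.19, FDR 0.484), beside 2192 of all 10508 genes. On counts, edgeR passed 4 members and 6.74% of all genes, and DESeq2 passed 5 members and 8.05%. In limma 0 of 9 members passed with all 6 groups in one fit, with the T cell list as the reference or with the erythroid score as a covariate. Each of these fits passed 0% of all genes (1746, 1538 and 1057 genes at an unadjusted p under 0.05). The members' median log2 fold change was 0.36 in the fit of 6 groups, as reported, 0.33 with the T cell list and 0.23 with the erythroid score.

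The D06 group had 0 of 9 members past the thresholds against HOCl mice in limma (0.133% of all genes) and 0 by edgeR (56 of 10503 genes). Without HOCl mouse 8, edgeR passed 9 of 10503 genes there. DESeq2, which included HOCl mouse 8, passed 1 (Pax5), beside 1.96% of all genes (158 of 8059). Pax5 (log2 fold change -0.36, FDR 0.231) and Fcmr (-0.37, FDR 0.244) had an unadjusted p under 0.05 (2 of 9), as did 1338 of all 10508 genes. The BPR21 group likewise had 0 of 9 members past the thresholds in limma (0.638% of all genes). There, edgeR and DESeq2 each passed 0, beside 90 of 10503 and 255 of 10095 genes (66 by edgeR without HOCl mouse 8). With T cell list centring in limma Pax5 passed as lower (FDR 0.0422), beside 603 of all 10508 genes, of which 599 were lower. The T cell list itself was not level in this comparison. Of its 14 genes 2 were higher in BPR21 mice (Il7r and Lat), 6 had an unadjusted p under 0.05, and the median was 0.14. In the reported fit the same genes as for D06 mice, Pax5 (log2 fold change -0.53, FDR 0.25) and Fcmr (-0.46, FDR 0.327), had an unadjusted p under 0.05 (2 of 9), as did 1474 of all 10508 genes. The median log2 fold change of the members was -0.16 in D06 and -0.23 in BPR21 compared with HOCl mice. For BPR21 mice it was -0.41 with T cell list centring, -0.38 with the erythroid covariate and -0.16 with CPM plus 1. For D06 mice it was -0.15, -0.16 and -0.27 in these settings. All of these comparisons share the HOCl mice.

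Set against these groups, nearly all members passed as higher in E07 mice. Compared with D06 mice, 8 of 9 members were higher in E07 mice, where 9.76% of all genes passed and 1.34% passed with higher values. Compared with BPR21 mice the count was also 8 of 9, where 7.26% of all genes passed and 1.57% passed with higher values. In each case Ms4a1 was the exception, at 0.31 (FDR 0.141) against D06 mice and 0.60 (FDR 0.0683) against BPR21 mice. Pax5 was 0.41 higher than in D06 mice (FDR 0.00433) and 0.57 higher than in BPR21 mice (FDR 0.0449). The largest log2 fold changes were those of Cd22 against D06 mice (0.69, FDR 8.3e-05) and of Cd79b against BPR21 mice (0.84, FDR 0.0199). Against D06 mice 8 members passed by edgeR (12.6% of all genes) and 8 by DESeq2 (13.6%). In limma 6 passed against D06 mice with all 6 groups in one fit (9.67%) and 6 with T cell list centring (10.9%, 43 genes higher and 1106 lower). Against BPR21 mice 6 passed by edgeR (10.4%) and 7 by DESeq2 (12.3%). In limma the count against BPR21 mice was 9 with all 6 groups in one fit (6.68%), 9 with T cell list centring (6.59%) and 5 with a replicate block of mouse numbers (7.36%). With the erythroid score as a covariate, 0 of 9 members and 0% of all genes passed in limma against D06 mice (1328 genes at an unadjusted p under 0.05) and against BPR21 mice (1011). Against D06 mice the members' log2 fold changes with this covariate were -0.01 to 0.61 (median 0.33, where 0.54 was reported). With each BPR21 mouse left out in turn, a check added after the data were seen, 6 to 9 members passed. The share of all genes is not given here for any fit with a mouse left out. All of these comparisons share the E07 mice.

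**Figure D3:**
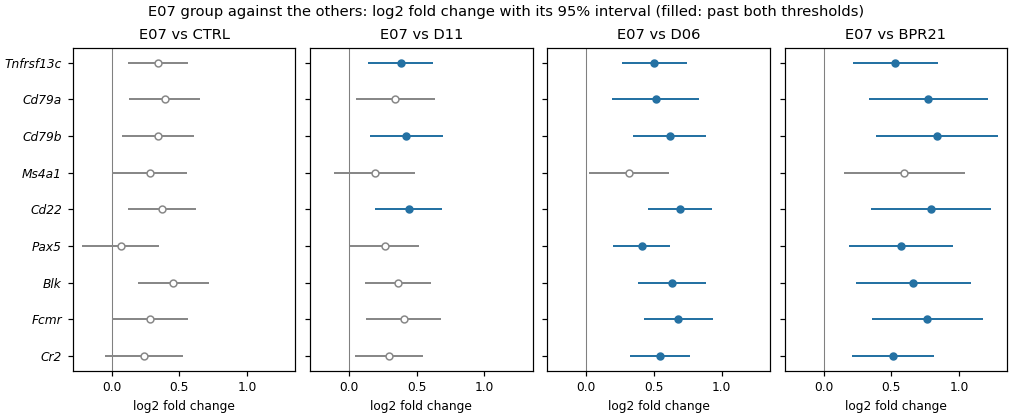
log2 fold change of each member with its 95% CI (limma on vst values), in E07 mice compared with control, D11, D06 and BPR21 mice. Of the 9 members, 8 passed against D06 and against BPR21 mice, 3 against D11 mice and 0 against control mice.

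Compared with control mice, E07 mice showed positive log2 fold changes for all 9 members, from 0.07 for Pax5 to 0.46 for Blk (median 0.34). In limma 0 of 9 passed, and 0.00952% of all genes did (1 gene). An unadjusted p under 0.05 was reached by 7 of 9 members and by 799 of all 10508 genes. By edgeR and by DESeq2 0 members passed, beside 1 and 20 of 10503 genes. Blk had the lowest FDR of the members in limma (0.284), with 11 of 12 E07 mice above the control median and 6 above the highest control mouse.

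The remaining comparisons gave 0 of 9 members in limma, where 0.0761% of all genes passed between D11 and control mice, 7.88% between D06 and control mice and 0.504% between BPR21 and control mice. An unadjusted p under 0.05 was reached by 0 members and 1697 of all 10508 genes between D11 and control mice. Between D06 and control mice 4 members and 2436 genes reached it, and between BPR21 and control mice 3 members and 2095 genes. Among the treated groups, D11 and D06 mice differed in 0% of all genes (655 at an unadjusted p under 0.05, 0 by edgeR, 0 by DESeq2) and D11 and BPR21 mice in 0% (621 at an unadjusted p under 0.05, 0 by edgeR, 2 by DESeq2). D06 and BPR21 mice differed in 0.0571% (939 genes at an unadjusted p under 0.05, 7 by edgeR, 38 of 10299 by DESeq2). An unadjusted p under 0.05 was reached by 1 member, Blk, between D11 and D06 mice and by 0 in the other pairs. By edgeR and DESeq2 on the genes of the vst table, 0 members passed in these 6 comparisons. Against control mice edgeR passed 10 genes in D11, 1004 in D06 and 187 in BPR21 mice, of 10503. DESeq2 passed 174, 1072 and 521 genes in these groups, of 10503. All 9 members had lower means in D06 than in control mice on the vst scale, with Fcmr lowest (log2 fold change -0.40, FDR 0.0913), while the highest value was 0.09 with T cell list centring and 0.20 with the erythroid score as a covariate. In this comparison 23 of 23 erythroid and 5 of 6 platelet genes were higher. The erythroid covariate left 0 members and 3 of all 10508 genes past the thresholds. Scaled to total counts (CPM plus 1, on a log2 scale), all 9 passed as lower in D06 than in control mice, from -0.99 to -0.60, beside 67% of all genes and a median of all genes of -0.57. edgeR with no filter on low counts passed 2 of them as lower, Pax5 and Fcmr, beside 10% of all genes. On the vst scale all 9 also had lower means in BPR21 than in control mice, with Pax5 lowest (-0.51, FDR 0.185).

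The spread of the members also differed between groups. The SD was lowest in E07 mice for all 9 members, 0.19 to 0.30, and highest in BPR21 mice for all 9, 0.48 to 0.78. The difference in spread was not tested, and the share of all genes with the same order of SD is not given here. Among the 6 groups, E07 mice also had the lowest SD of the size factor (0.176) and of the erythroid score (0.55). In BPR21 mice these were 0.231 and 0.83. Because the members moved together across mice, as given below, they are not 9 separate observations of spread. BPR21 mouse 11 was the lowest of its group for all 9 members and lay below every HOCl mouse for all 9. BPR21 mice 7, 10 and 12 lay below the lowest HOCl mouse for 6, 6 and 7 members. In the HOCl group, mouse 12 was the lowest for all 9 members, and mouse 7 was among the 3 lowest for all 9. D11 mouse 12 was the lowest of its group for 8 members. Left out in turn, no HOCl or E07 mouse changed the count of 6 members between these groups.

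**Figure D4:**
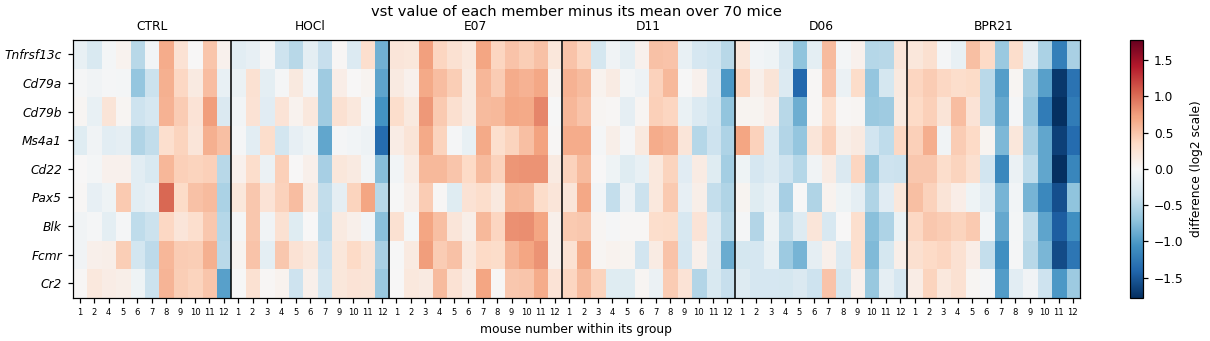
vst value of each member (lines) in each of 70 mice (columns, by group), minus the member's mean over all mice, on the log2 scale. Mice low for a member tend to be low for the others, as in HOCl mouse 12 and BPR21 mouse 11.

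Across the 70 mice, deviations from the group mean were correlated between members. Over the 36 pairs, Pearson's r ran from 0.638 (Ms4a1 and Cr2) to 0.947 (Cd79a and Cd79b), with a median of 0.807. All members of a mouse come from the same library and share its size factor. Within groups, the median r of the pairs was 0.94 in BPR21, 0.834 in control, 0.823 in D11, 0.78 in HOCl, 0.71 in E07 and 0.611 in D06 mice (n = 11 or 12). Cd79b had the highest mean r with the other members (0.864) and Cr2 the lowest (0.72).

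Genes outside the members were ranked by the same deviations against the mean of the members over 70 mice. Among the closest were Ighm (r = 0.952) and Ighd (0.931), which encode the heavy chains of membrane immunoglobulin, and Cd74 (0.941), the invariant chain of MHC class II. Fcer2a (0.930) and Fcrla (0.900) are in the list of other B cell genes, H2-DMb2 (0.908), H2-Eb1 (0.908) and H2-Ab1 (0.902) belong to the MHC class II system, and Ifi30 (0.892) encodes a lysosomal reductase. The median r of all other genes was 0.00896. Of the genes named here, Ighd, Fcer2a, H2-DMb2 and Fcrla passed as higher in E07 than in HOCl mice. Against D06 mice all but Ifi30 (log2 fold change 0.17, FDR 0.228) passed as higher in the E07 group. Against BPR21 mice all but Ighm (0.54, FDR 0.0517) did.

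The BAFF system list holds other genes of the pathway of Tnfrsf13c. Of 11 listed genes, 10 were tested, and 1 was higher in E07 than in HOCl mice, Tnfrsf17, which encodes the receptor BCMA of plasma cells (log2 fold change 0.49, FDR 0.00445), which passed by DESeq2 as well and not by edgeR. Between HOCl and control mice Tnfrsf17 fell by 0.45 in limma (FDR 0.0111), and 0 genes of the list passed there by edgeR or by DESeq2. Tnfsf13b, which encodes BAFF itself, had a log2 fold change of -0.06 between E07 and HOCl mice (FDR 0.819). Tnfrsf13b, which encodes the related receptor TACI, reached 0.35 (FDR 0.00355), under the 1.3-fold threshold in limma, and passed by edgeR and by DESeq2. The median of the list was 0.07. Against BPR21 mice, Tnfrsf13b (0.59, FDR 0.0174) and the NF-κB subunit Relb (0.40, FDR 0.0189) were higher in E07 mice in limma. Birc2, an inhibitor of apoptosis protein, was lower in E07 mice against D11 (log2 fold change -0.41, FDR 0.0286), D06 (-0.44, FDR 0.00568) and BPR21 mice (-0.61, FDR 0.0225). In D06 compared with control mice, the kinase gene Map3k14 was lower (-0.40, FDR 0.02). Where limma passed 1 gene of the list in E07 compared with D06 mice, edgeR and DESeq2 each passed 4.

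Downstream of the receptor, 2 of 23 signalling genes were higher in E07 than in HOCl mice, among them the adaptor Blnk (0.38, FDR 0.036), which is also in the list of other B cell genes. The kinases Syk (-0.04, FDR 0.805) and Btk (0.21, FDR 0.0861), which act below Cd79a and Cd79b, did not pass, and the median of the list was -0.02. Among 11 inhibitors of the receptor, 1 was higher, Siglecg (0.44, FDR 0.00391), and Cd72 (0.33, FDR 0.0728) was not past the threshold. Of 23 other B cell genes, 10 were higher and the median was 0.33, beside 0.49 for the members. They included Bank1, Blnk, Fcer2a, Fcrl1, Fcrla, H2-Ob, Ly6d, Siglecg and Vpreb3. In E07 compared with D06 mice 12 of the 23 were higher, in E07 compared with BPR21 mice 11, and in E07 compared with D11 mice 2. In these 3 comparisons edgeR passed 14, 7 and 2 genes of the list, and DESeq2 14, 10 and 4.

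Markers of other cells were examined beside the members in E07 compared with HOCl mice. Of 8 plasma cell genes 1 was higher in limma, Tnfrsf17 (0 by edgeR, 1 by DESeq2). The T cell list, with Tcf7 as its most abundant gene, had 0 of 14 genes past the thresholds in limma, 2 at an unadjusted p under 0.05 and 0 by edgeR or DESeq2, with a median of 0.09. The summed level of its genes was 1875 to 3283 CPM (median 2703) in E07 mice and 967 to 2682 CPM (median 1866) in HOCl mice, on a scale where all genes had a median log2 fold change of 0.49. In the NK cell list 0 of 6 genes passed in limma (1 at an unadjusted p under 0.05, 0 by edgeR or DESeq2). The plasmacytoid dendritic cell list had 0 of 6 (0 at an unadjusted p under 0.05, 0 by edgeR or DESeq2), and the general leukocyte list had 0 of 4 (2 at an unadjusted p under 0.05, 0 by edgeR or DESeq2). Among neutrophil genes, with S100a9 as the most abundant, 0 of 7 passed in limma (1 at an unadjusted p under 0.05, 0 by edgeR, 1 by DESeq2). The monocyte list had 2 of 7 genes lower (Csf1r and F13a1), and the eosinophil list had 2 of 4 higher (Ccr3 and Il5ra), with Epx at a median count of 0. Of 6 genes of immature B cells, 1 was tested and 0 passed in limma (1 at an unadjusted p under 0.05, 0 by edgeR, 1 by DESeq2), and Vpreb1, Igll1 and Rag2 had a median count of 0. Cox6a2 of the plasmacytoid dendritic cell list had a median count of 0 as well.

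Erythroid and platelet genes differed in the opposite direction from the members. In E07 compared with HOCl mice, 22 of 23 erythroid genes were lower (median log2 fold change -1.30), as were 6 of 6 platelet genes on the vst scale (-0.53). Of total counts, the platelet list, with Pf4 as its most abundant gene, took a median of 0.403% in HOCl mice and 0.396% in E07 mice. The erythroid list, with Alas2 as its most abundant gene, took 3.32% to 10.5% of the counts of control mice (median 7.36%), 8.12% to 18.4% in HOCl mice (median 12.0%) and 4.76% to 9.73% in E07 mice (median 6.82%). The share was 5.22% to 12.8% in D11 mice (median 8.63%), 7.56% to 18.7% in D06 mice (median 9.51%) and 6.28% to 12.3% in BPR21 mice (median 9.04%). Between HOCl and control mice, where 0 members passed in limma as given above, 22 of 23 erythroid genes and 5 of 6 platelet genes were higher. Erythroid genes were lower in E07 mice for 22 of 23 against D06, 14 of 23 against BPR21 and 9 of 23 against D11 mice. Platelet genes were lower in E07 mice for 6 of 6 against D06, 6 of 6 against BPR21 and 3 of 6 against D11 mice. Against D11 mice edgeR passed 16 erythroid and 5 platelet genes, and DESeq2 passed 15 and 6. Against BPR21 mice, 3 of 7 monocyte genes (Ccr2, Cx3cr1 and Ly6c2), 2 of 6 NK cell genes (Gzma and Ncr1) and 2 of 4 eosinophil genes (Ccr3 and Il5ra) were also higher in E07 mice, and the T cell gene Il7r was lower. There edgeR passed 1 monocyte, 2 NK cell and 1 eosinophil gene, and DESeq2 passed 3, 2 and 1. On the CPM scale all genes had a median log2 fold change of 0.41 in E07 compared with BPR21 mice. The summed level of the monocyte list was 596 to 1050 CPM in E07 mice (median 748) and 295 to 821 CPM in BPR21 mice (median 533). For the NK cell list it was 197 to 563 CPM (median 341) and 101 to 339 CPM (median 165). For the eosinophil list it was 43.1 to 170 CPM (median 77.5) and 10.1 to 85.9 CPM (median 39.9). Against D06 mice, Cx3cr1 was higher and F13a1 lower among 7 monocyte genes. The part of these other lists in the result for the members was not tested.

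**Figure D5:**
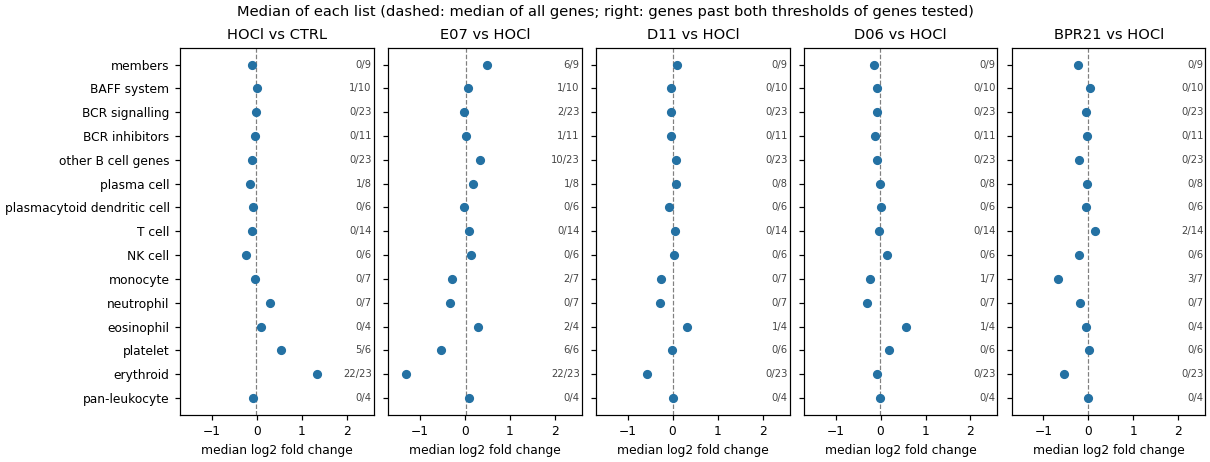
Median log2 fold change (vst scale) of the members and of each list of genes, for HOCl compared with control mice and each treated group compared with HOCl mice, with the median of all genes as a dashed line and the number of genes past both thresholds on the right. In E07 compared with HOCl mice the members lie at 0.49 and the erythroid list at -1.30.

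With the mean z-score of the erythroid list as a covariate, the members' log2 fold changes between E07 and HOCl mice were -0.11 to 0.59 (median 0.32). The score ranged from -1.45 to 0.06 in E07 mice and from -0.73 to 2.57 in HOCl mice. This covariate was not fitted with edgeR or DESeq2.

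Other settings changed which members passed. With all 6 groups in one fit, which leaves the fold changes as they are, Ms4a1 and Tnfrsf13c passed between E07 and HOCl mice. With each mouse centred on its T cell list, Cd79a, Ms4a1 and Tnfrsf13c passed, and the members' median log2 fold change was 0.41. Scaled to total counts instead (CPM plus 1, on a log2 scale), all 9 members passed between E07 and HOCl mice, as did 65.6% of all genes, 6561 of them higher and 324 lower, compared with 92 higher and 737 lower on the vst scale. Relative to the median of all genes, the shift was 0.75 for Tnfrsf13c, 0.63 for Ms4a1, 0.57 for Cd79a and 0.06 for Pax5. Between HOCl and control mice, 5 members were lower on the CPM scale (Cd79a, Cd79b, Ms4a1, Cd22 and Tnfrsf13c), as were most of the 52% of all genes that passed (327 higher and 5134 lower, compared with 503 higher and 18 lower on the vst scale). Relative to all genes these shifts were -0.35 for Tnfrsf13c, -0.34 for Ms4a1, -0.21 for Cd79b, -0.17 for Cd79a and -0.13 for Cd22.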

How the data were processed

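RNA of whole blood was measured in 71 mice of 6 groups, taken from the sample titles, since the genotype label of the control samples reads as that of HOCl mice. The authors trimmed the reads with Cutadapt, aligned them to mm39 with STAR and deposited counts per gene from featureCounts (55416 genes). A table of log2-like values, which the authors made with the variance-stabilising transformation (vst) of DESeq2, covers 70 mice and 10508 genes, after removing genes that are not protein-coding or are low. Versions of most of these tools and the annotation release are not given in the sources used here. CPM were computed here from the deposited counts, divided by each mouse's total.

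Each of 15 comparisons was fitted with limma 3.58.1 (R 4.3.3) on the vst values of its 2 groups, with Benjamini-Hochberg adjustment over all 10508 genes. The thresholds were an FDR of 0.05 and a 1.3-fold change in either direction. Named genes were the 9 members, genes of the pathway and cell type lists that passed in the main comparisons, and the 10 genes most like the members, of which 1 gene is not reported here. Other genes were named after their values were seen (Syk, Btk, Cd72, Tnfsf13b and Tnfrsf13b). The members and lists were chosen with earlier results of these data known. Alternatives comprised edgeR 4.0.16 and DESeq2 1.42.0 on counts (10503 of the vst genes had counts, 2 of them paired by annotation name), low-count filters (a minimum of 10 counts in 11 mice, filterByExpr, none), other scalings (CPM plus 1 or 0.1 on a log2 scale, median and T cell list centring), an erythroid covariate, all 6 groups in one fit, limma with trend and robust variances, FDR alone, a replicate block and each mouse left out. Scripts were tested on simulated data, where the share of unchanged genes among the calls lay above the FDR threshold for each tool and was largest for the DESeq2 Wald test. Tables and figures were made with Python 3.11.15, numpy 2.4.6, pandas 2.3.3, scipy 1.17.1 and matplotlib 3.10.9. Gene positions and exon lengths are from the GENCODE annotation of GRCm39, and promoters are from RefSeq.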

Additional observations from a re-analysis of the deposited data

How the results depend on the processing

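Over 15 settings beside the reported fit, 195 of 215 counts of members past the thresholds stayed within 1.5 times of the reported count and 20 moved. In E07 compared with HOCl mice, the count of 6 became 2 with all 6 groups in one fit, 3 with T cell list centring and 0 with the erythroid covariate. In E07 compared with D11 mice, the count of 3 became 0 with all 6 groups in one fit, 0 with T cell list centring, 0 with the erythroid covariate, 9 with CPM plus 1, 9 with CPM plus 0.1, 5 by edgeR with no filter and 5 by DESeq2. In this order, the last 4 passed 4665, 4404, 1464 (of 26419) and 845 of 10503 genes. The erythroid covariate gave 0 in E07 compared with D06 mice and 0 in E07 compared with BPR21 mice. In HOCl compared with control mice, the count of 0 became 5 with CPM plus 1 (5461 of 10503 genes) and 5 with CPM plus 0.1 (5103). In D06 compared with control mice it became 9 with CPM plus 1 (7042 of 10503 genes), 9 with CPM plus 0.1 (6730) and 2 by edgeR with no filter (2612 of 26064). DESeq2 gave 1 in D06 compared with HOCl mice (158 of 8059 genes), and T cell list centring gave 1 in BPR21 compared with HOCl mice (Pax5, 603 of 10508 genes). The cause was not tested.

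On the CPM plus 1 scale, all genes together had a median log2 fold change of 0.39 in E07 compared with D11 mice (4513 higher and 152 lower, on the vst scale 31 and 449), 0.59 against D06 mice (7487 and 305, on the vst scale 141 and 885) and 0.41 against BPR21 mice (4661 and 152, on the vst scale 165 and 598). In D06 compared with control mice it was -0.57 (292 higher and 6750 lower, vst 764 and 64). T cell list centring gave a median of 0.11 in E07 compared with BPR21 mice (480 higher and 213 lower). In BPR21 compared with HOCl mice it gave -0.18 (4 and 599, vst 25 and 42). edgeR on the vst genes passed 338 higher and 835 lower genes in E07 compared with HOCl mice, where limma passed 92 and 737.

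Mice were not paired by number, since no comparison had r over 0.1 in every same-numbered pair. The share over 0.1 ran from 1 of 12 (D06, BPR21) to 7 of 11 (E07, control), with 3 of 11 for E07 and HOCl. Mean r of these pairs exceeded that of other pairs in all comparisons but D06 with BPR21. It reached 0.146 (others -0.00971) for E07 with control, and a shared batch was not tested. With the number as a replicate block, 6 members passed in E07 compared with HOCl mice (799 genes, reported 829). In E07 compared with BPR21 mice 5 passed, where 8 was reported (773 genes, reported 763). In HOCl compared with control mice 0 passed in limma (85 genes, reported 521). Over all genes the block raised the count from 53 to 534 in BPR21, from 8 to 115 in D11 and from 1 to 13 in E07 compared with control mice. The block turned Blk to 0.017 and Fcmr to 0.049 in HOCl compared with control mice.

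Single members were followed across settings in the comparisons that include HOCl mice. There, the log2 fold changes that turned sign lay between -0.113 and 0.096 in the reported fit and passed the thresholds under neither setting. In the other comparisons only the members' range was kept. With the erythroid covariate its lowest value was -0.01 in E07 compared with D06 mice, where 0.31 was reported, -0.02 in E07 compared with D11 mice (0.19), -0.03 in D11 compared with D06 mice (0.12) and 0.03 in D06 compared with BPR21 mice (-0.03). T cell list centring gave 0.16 in the last of these. In D06 compared with control mice the highest value was 0.09 with T cell list centring and 0.20 with the erythroid covariate (reported -0.03). In D11 compared with control mice it was -0.26 with CPM plus 1 and -0.27 with CPM plus 0.1 (reported 0.09). In HOCl compared with control mice, T cell list centring gave Cd22 0.0, Blk 0.089, Fcmr 0.09 and Cr2 0.005, and the erythroid covariate gave Cd22 0.054, Blk 0.115, Fcmr 0.051 and Cr2 0.087. Pax5 was -0.448 with CPM plus 1, -0.457 with CPM plus 0.1 and -0.028 by edgeR on the 11 HOCl mice of the vst table, a setting added after seeing the data. Fcmr was 0.036 by edgeR on the vst genes, 0.023 with the minimum of 10 counts, 0.023 with filterByExpr, 0.023 with no filter and 0.053 by DESeq2. In E07 compared with HOCl mice, Pax5 was -0.036 with T cell list centring, -0.107 with the erythroid covariate, -0.134 by edgeR on the vst genes, -0.131 with the minimum of 10 counts, -0.132 with filterByExpr, -0.137 with no filter and -0.168 by DESeq2. These count fits include HOCl mouse 8, and edgeR on the 11 HOCl mice of the vst table gave 0.048. In D11 compared with HOCl mice, Cd22 was -0.049 with the erythroid covariate, and Cr2 was -0.001 by edgeR with the minimum of 10 counts and -0.001 with filterByExpr. In D06 compared with HOCl mice, Cd79a was -0.057 with CPM plus 1 and -0.058 with CPM plus 0.1. In BPR21 compared with HOCl mice, Tnfrsf13c was -0.084 with T cell list centring. Ms4a1 was 0.069 with CPM plus 1, 0.068 with CPM plus 0.1, 0.145 by edgeR on the vst genes, 0.134 with the minimum of 10 counts, 0.134 with filterByExpr, 0.137 with no filter, 0.135 by DESeq2 and 0.114 by edgeR on the 11 HOCl mice.

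With a mouse left out (90 fits), the counts of members past the thresholds were 6 to 6 in E07 compared with HOCl mice, 6 to 9 in E07 compared with BPR21 mice, and 0 to 0 in limma in the other comparisons so examined. Log2 fold changes that turned sign ranged from -0.051 to 0.106 (Pax5), -0.077 to 0.045 (Blk) and -0.085 to 0.044 (Fcmr) in HOCl compared with control mice, and from -0.024 to 0.096 (Pax5) in E07 compared with HOCl mice. They ranged from -0.027 to 0.089 (Cd22) and -0.014 to 0.079 (Cr2) in D11, from -0.05 to 0.07 (Cd79a) in D06 and from -0.118 to 0.05 (Ms4a1) in BPR21 compared with HOCl mice.

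Groups of the study are confounded with cages, and B cell number was not measured in these data. With 92 or more counts per mouse, depth limited no member's detection.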

Other observations

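HOCl mouse 8, whose counts alone were used, had 395 CPM of Cd79b, 121 CPM of Pax5, 209 CPM of Fcmr and 45.3 CPM of Cr2. Each of these lay above every other HOCl mouse and below the highest control mouse. Its Ms4a1 level was 126.5 CPM, where the other HOCl mice ranged from 51.6 to 265 CPM.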
